A study of Oryza sativa with 12 samples.

Results

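LIR1, PORA, PSAG, PSAH and HO2 are rice genes of plastid proteins, tied by name or family to light, to the photosystems or to the making of chlorophyll and related pigments. They were chosen with their signals on these arrays already in view, so their levels and differences are given as descriptions, with no test. All 5 names were found among the symbols and synonyms of the 17905 genes that had a probe set, and they were covered by 6 of the 22436 probe sets assigned to 1 gene. PSAG had 2 probe sets and each other gene had 1. A gene is represented by its brightest probe set on average across the 12 arrays, unless said otherwise.

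The arrays measured rice panicles in 4 groups of 3, each array labelled as a biological replicate. The 252 high panicles came from line 252, described as heat tolerant, kept for 5 days at 37 °C in the day and 30 °C in the night, and the 252 optimal panicles from the same line at 30 °C and 25 °C. The 082 high and 082 optimal panicles came from line 082, described as heat sensitive, under the same regimes. Nothing in the labels tells whether replicates came from separate plants, so errors and p-values measure only the spread between these samples, and 3 arrays per group limit the precision of every value. Signals are fluorescence intensities without a unit, and levels of different probe sets are not compared. Neither the stage of the panicles nor the hour of sampling is known here. In bulk panicle RNA, fewer green cells and less of a transcript per cell cannot be told apart.

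In plants, light drives the making of chlorophyll and of the photosystems, and phytochromes and other photoreceptors pass the light signal on to nuclear genes for plastid proteins. Many of these genes also follow the circadian clock, so that their level depends on the time of day. The green outer organs of the rice spikelet photosynthesise, and panicles therefore hold these transcripts alongside those of developing flowers and grain.

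LIR1 and PORA shared a pattern: both were highest in 252 optimal panicles, lowest in 082 optimal panicles, and much closer between the lines at high temperature. PSAG was higher at high temperature in both lines. PSAH had its lowest mean in 082 optimal panicles, whose arrays overlapped the high groups of both lines but not 252 optimal panicles. HO2 was lowest in 082 high panicles.

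**Figure D1:**
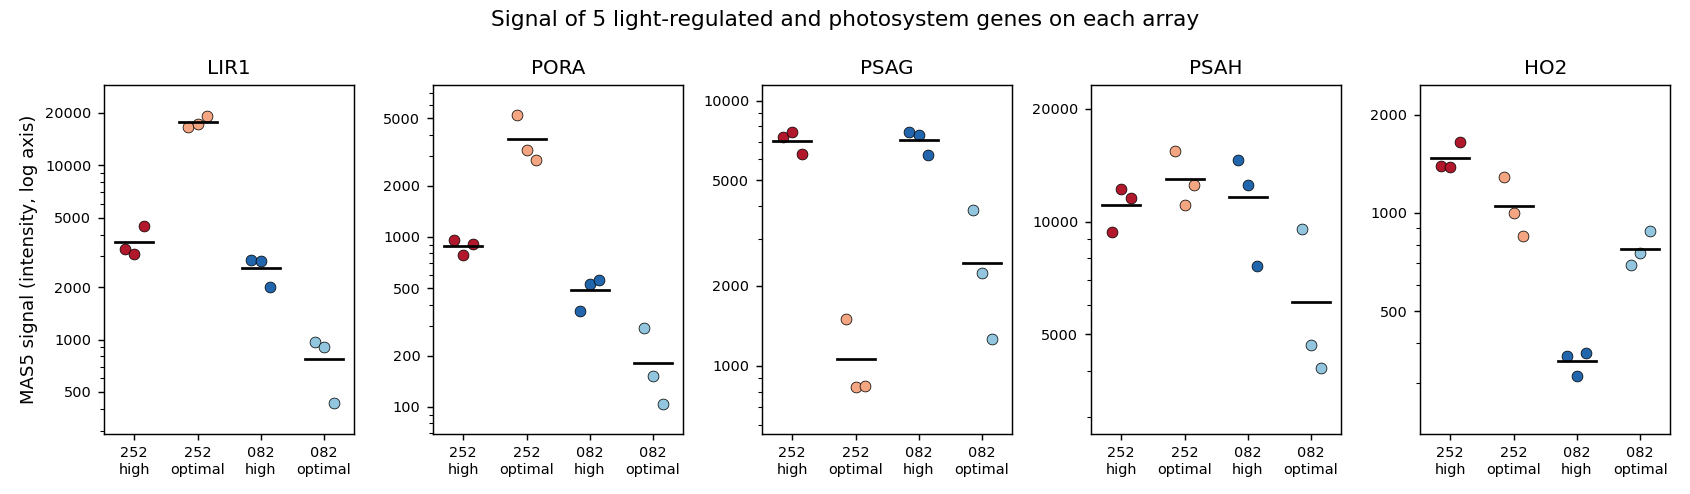
Signal of each gene (vertical log axis, MAS5 intensity) on the 12 arrays, in 4 groups by line and temperature; points are arrays and bars are group means. LIR1 and PORA sit highest in 252 optimal and lowest in 082 optimal panicles, PSAG sits above its optimal arrays at high temperature in both lines, and HO2 is lowest in 082 high panicles.

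LIR1 (LOC4326442) is named as a light-regulated gene of rice, and its product is a plastid protein known to bind ferredoxin-NADP reductase, the enzyme that hands electrons from photosystem I to NADP. Its signals were 3287, 3091 and 4482 in 252 high panicles, against 16530, 17288 and 19299 in 252 optimal panicles. They were 2872, 2826 and 2002 in 082 high panicles, against 972, 909 and 431 in 082 optimal panicles. No group overlapped another. From the top, the order was 252 optimal (mean 17706 ± 1431, SD, n = 3), 252 high (3620 ± 753), 082 high (2567 ± 489) and 082 optimal (771 ± 295).

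The heat differences of LIR1 ran in opposite directions in the lines. In line 252 its mean was 4.89-fold lower at high temperature, and the log2 difference was −2.30 ± 0.27 (SE). In line 082 its mean was 3.33-fold higher at high temperature, and the log2 difference was 1.78 ± 0.27. The difference of these heat changes, 252 minus 082, was −4.08 ± 0.38. Line 252 had a mean 1.41 times that of line 082 at high temperature (log2 0.49 ± 0.27) and 23.0 times at optimal temperature (4.57 ± 0.27).

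PORA (LOC4337415) encodes a protochlorophyllide oxidoreductase, the enzyme that needs light to make chlorophyllide. Its signals were 956, 785 and 906 in 252 high panicles, against 5223, 3243 and 2819 in 252 optimal panicles. They were 367, 530 and 558 in 082 high panicles, against 290, 152 and 104 in 082 optimal panicles. The groups followed the same order as for LIR1 and did not overlap. The smallest gap between arrays of neighbouring groups was from 367 in 082 high to 290 in 082 optimal panicles. The means were 883 ± 88.0 in 252 high and 3762 ± 1283 in 252 optimal, and 485 ± 103 in 082 high and 182 ± 96.1 in 082 optimal panicles.

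The log2 difference of PORA with heat was −2.02 ± 0.32 in line 252 and 1.43 ± 0.32 in line 082, and the difference of the heat changes was −3.45 ± 0.45. Between the lines it was 0.86 ± 0.32 for the high groups and 4.31 ± 0.32 for the optimal groups, where the mean in line 252 was 20.7 times that in line 082. PORA spread more than LIR1 between 252 optimal arrays, with a coefficient of variation of 34.1% against 8.08% for LIR1. Without replicate 1 of 252 optimal, its brightest array, the heat difference of PORA in line 252 was −1.76.

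PORB (LOC4349004) encodes another protochlorophyllide oxidoreductase. Its signals were 5250 ± 747 in 252 high and 4911 ± 778 in 252 optimal panicles, with a log2 change of 0.10 ± 0.26, where PORA had −2.02. They were 4241 ± 995 in 082 high and 1990 ± 882 in 082 optimal panicles, and PORB rose there by 1.14 ± 0.26 (limma adjusted p = 0.00265). Its lowest group was that of PORA.

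PSAG (LOC4337812) encodes a photosystem I subunit at the edge of the complex, beside the light-harvesting antenna. Its signals were 7286, 7639 and 6290 in 252 high panicles, against 1500, 831 and 839 in 252 optimal panicles. They were 7622, 7427 and 6231 in 082 high panicles, against 3855, 2233 and 1267 in 082 optimal panicles. High arrays lay above all optimal arrays in both lines, and the lines overlapped at each temperature. The means of 252 high and 082 high panicles were close, 7071 ± 700 and 7093 ± 753. Those of 252 optimal and 082 optimal panicles were 1057 ± 384 and 2452 ± 1308.

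The mean of PSAG was 6.69-fold higher at high temperature in line 252 and 2.89-fold higher in line 082, with log2 differences of 2.78 ± 0.33 and 1.66 ± 0.33. The difference of the heat changes was 1.11 ± 0.46. Line 252 minus line 082 gave log2 0.00 ± 0.33 for the high groups and −1.12 ± 0.33 for the optimal groups, which became −0.72 without replicate 1 of 082 optimal.

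The dimmer PSAG probe set did not show this pattern. Its signals were 65.9 to 118 in 252 high and 60.0 to 91.0 in 252 optimal panicles, and 93.6 to 146 in 082 high and 47.7 to 130 in 082 optimal panicles. Within each line the temperatures overlapped, and at each temperature the lines overlapped. Its log2 differences with heat were 0.17 ± 0.33 in line 252 and 0.45 ± 0.33 in line 082. That probe set was above its array's median on 10 of 12 arrays.

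PSAH (LOC4339593) encodes a photosystem I subunit that, in Arabidopsis, is needed for docking of the mobile light-harvesting antenna. Its signals were 9375, 12188 and 11567 in 252 high panicles, against 15438, 11039 and 12526 in 252 optimal panicles. They were 14622, 12547 and 7606 in 082 high panicles, against 9546, 4688 and 4068 in 082 optimal panicles. Heat groups overlapped in both lines, and so did the lines at high temperature. The optimal groups of the lines did not overlap, with means of 13001 ± 2238 in 252 optimal and 6101 ± 3000 in 082 optimal panicles. Between them in the order of means stood 082 high (11592 ± 3604) and 252 high (11043 ± 1478), and neighbours in that order overlapped.

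On the log2 scale PSAH differed with heat by −0.23 ± 0.30 in line 252 and 0.98 ± 0.30 in line 082, and the difference of the heat changes was −1.21 ± 0.42. Between the lines it was −0.03 ± 0.30 for the high groups and 1.18 ± 0.30 for the optimal groups. The difference at optimal temperature was 0.94 without replicate 3 of 082 optimal and 1.56 without replicate 1. At optimal temperature the photosystem I genes thus stood on opposite sides of 0, with PSAG lower and PSAH higher in line 252.

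HO2 (LOC4333033) belongs to the heme oxygenase family, whose member HO1 makes the bilin precursor of the phytochrome chromophore. In Arabidopsis the HO2 class lacks this activity. Its signals were 1394, 1386 and 1648 in 252 high panicles, against 1292, 998 and 852 in 252 optimal panicles. They were 363, 315 and 372 in 082 high panicles, against 691, 752 and 877 in 082 optimal panicles. Heat groups did not overlap in either line, nor did the lines at high temperature. The optimal groups overlapped, with means of 1047 ± 224 in 252 optimal and 773 ± 95.2 in 082 optimal panicles.

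The log2 difference of HO2 with heat was 0.50 ± 0.17 in line 252 and −1.11 ± 0.17 in line 082, and the difference of the heat changes was 1.61 ± 0.24. The value in line 252 was 0.07 with the hybridization spikes. At high temperature the mean in line 252 was 4.22 times that in line 082 (1476 ± 149 and 350 ± 30.7), a log2 difference of 2.03 ± 0.17, and at optimal temperature the log2 difference was 0.42 ± 0.17. HO2 was the 1 gene of the 5 with a larger line difference at high than at optimal temperature. HO1 (LOC4341462) had signals of 5619 ± 338 in 252 high and 5753 ± 1040 in 082 high panicles, a log2 difference of −0.02 ± 0.24. HO1 rose with heat in line 252 by 1.06 ± 0.24 (limma adjusted p = 0.0031), a call lost after quantile normalization (0.97), with the hybridization spikes (0.63) and without replicate 2 of 252 optimal (0.96).

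**Figure D2:**
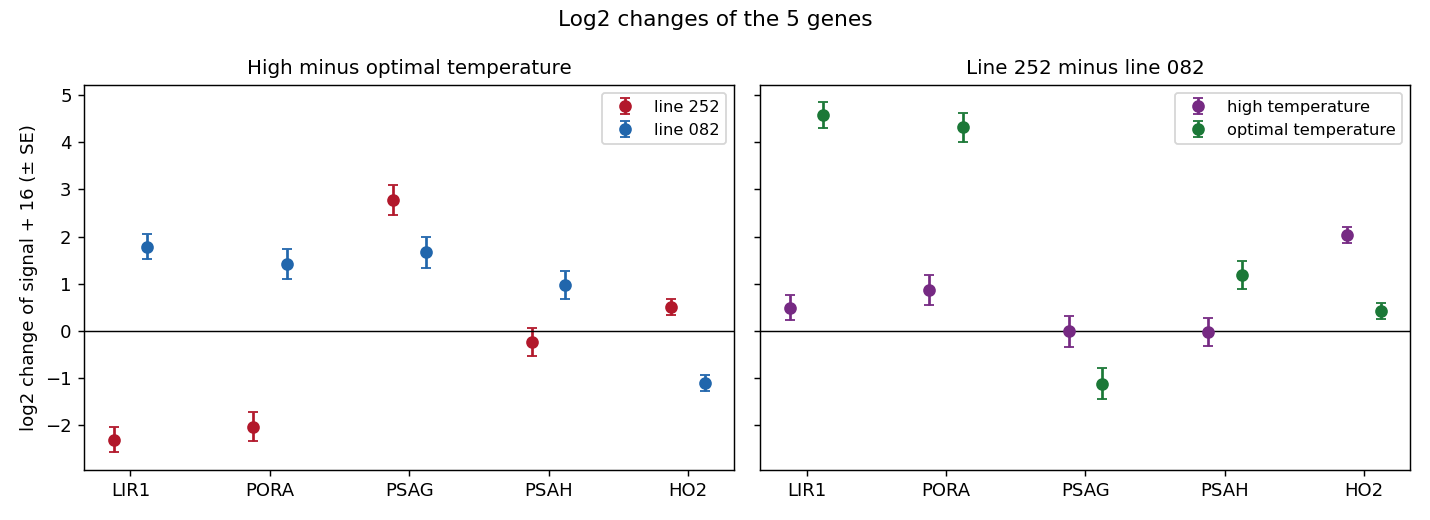
Log2 differences of signal + 16 for the 5 genes with standard errors; the left panel gives high minus optimal temperature in each line and the right panel line 252 minus line 082 at each temperature. LIR1 (−2.30 and 1.78) and PORA (−2.02 and 1.43) have opposite heat differences in lines 252 and 082, and HO2 (2.03 at high and 0.42 at optimal temperature) has its larger line difference at high temperature.

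For comparison with all probe sets, a difference was called at an adjusted p under 0.05 (limma, Benjamini-Hochberg over 33610 tested probe sets) with a log2 size of 1 or more. All 5 genes passed the filter on dim probe sets and were above the array median on all 12 arrays. For heat in line 252, 28.8% of tested probe sets were called, and 3 of the 5 genes met the same rule (PSAG higher, LIR1 and PORA lower). For heat in line 082, 36.1% were called, and 4 of the 5 met it (LIR1, PORA and PSAG higher, HO2 lower).

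For the difference of heat changes 23.3% were called, and 4 genes met the rule, all except PSAG. Between the lines 1.76% were called at high temperature, where HO2 met the rule, and 27.4% at optimal temperature, where all except HO2 met it. As the genes were chosen with these differences in view, nothing is read from these counts. The median log2 change of all tested probe sets was −0.20 for heat in line 252 and −0.15 in line 082. Quantile normalization moved these medians to 0.07 and 0.13, centring on the 75th percentile to 0.07 and 0.02, and scaling to the hybridization spikes to −0.58 and −0.26.

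Arrays of the optimal groups deviated alike in several of these genes. Replicate 1 of 082 optimal was the highest array of its group for LIR1, PORA, PSAG and PSAH, by 0.41, 0.73, 0.79 and 0.75 log2 above the group mean, and the lowest for HO2 (−0.15). Replicate 3 was the lowest for LIR1, PORA, PSAG and PSAH (−0.73, −0.61, −0.80 and −0.48) and the highest for HO2 (0.19). Without replicate 1, the heat differences in line 082 were 1.99 for LIR1, 1.79 for PORA, 2.06 for PSAG, 1.35 for PSAH and −1.18 for HO2. Replicate 1 of 252 optimal was the highest of its group for PORA (0.52), PSAG (0.56), PSAH (0.26) and HO2 (0.32), and the lowest for LIR1 (−0.10). Among the high arrays, the farthest from its group mean was replicate 3 of 082 high for PSAH (−0.55).

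**Figure D3:**
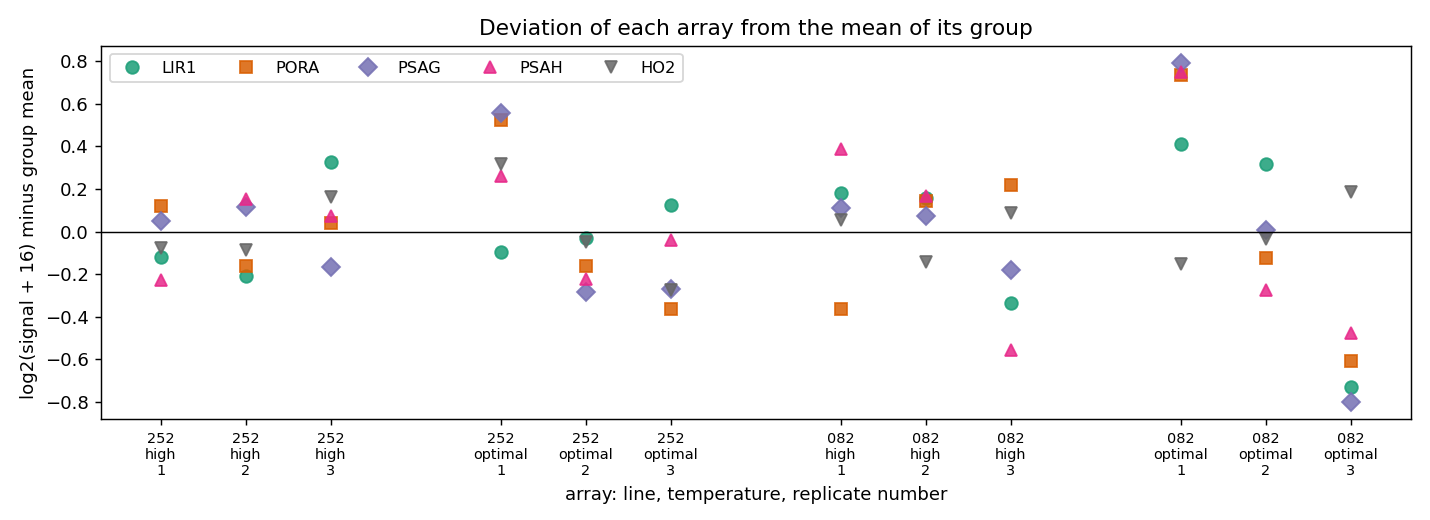
Deviation of each array from the mean of its own group in log2(signal + 16), for the 5 genes; arrays are set out by line, temperature and replicate number. The widest spread is in 082 optimal panicles, where PSAG lies at 0.79 on replicate 1 and −0.80 on replicate 3.

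Tissue markers differed between the groups. The 12 floral MADS-box names used as panicle markers matched 13 genes, all above the array median on all 12 arrays. Their summed signal was 83012 to 102785 in 252 high and 49353 to 71176 in 252 optimal panicles, and 82247 to 88797 in 082 high and 35640 to 52176 in 082 optimal panicles. The 13 did not move as one in line 252, where 5 rose with heat, 2 fell and 6 did not pass, with MADS1 at 1.88, MADS16 at 1.87, MADS4 at −1.86 and MADS58 at −1.75. In line 082, 7 rose and 6 did not pass. The summed signal of 3 leaf markers (CAB2R, RBCS and RCA) was 96677 to 109699 in 252 high and 55532 to 65675 in 252 optimal panicles, and 81812 to 109189 in 082 high and 61202 to 74549 in 082 optimal panicles. Of 3 anther and tapetum markers with a probe set, 0 were above the median on all arrays, and their sums were 33.9 to 71.3 in 252 high and 84.0 to 138 in 252 optimal panicles, and 29.8 to 37.9 in 082 high and 129 to 308 in 082 optimal panicles. The 2 bright enough to test did not move as one in line 252. CYP703A3 had −1.85 there, and EAT1, which did not pass, had 0.55. EAT1 had the largest signal of the 3 in 082 optimal panicles (186 ± 92.1).

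Grain transcripts set the 082 optimal arrays apart. The summed signal of 10 grain markers (starch synthesis, storage proteins and seed regulators) was 221 to 676 in 252 high and 469 to 12447 in 252 optimal panicles, and 137 to 189 in 082 high and 189997 to 258507 in 082 optimal panicles. Replicate 1 of 082 optimal had the lowest grain sum (189997) and the highest MADS-box sum (52176) of its group. Replicate 1 of 252 optimal had the grain sum of 12447, against 580 and 469 on the other arrays of its group. The grain markers did not share this spread. In 252 optimal panicles GBSS-I had the largest mean of the 10 (3980 ± 6640), and NF-Y4 (130 ± 185) and VP1 (72.0 ± 85.6) also spread widely. Storage protein genes stayed low there, from 2.85 ± 1.22 for PROLM25 to 157 ± 10.5 for GLUA-2. None of the sums was at 0. The part of these tissues in the values of the 5 genes was not tested.

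Clock genes also differed between the groups. GI, an evening gene of the plant clock, had a signal of 897 ± 69.3 in 252 high and 10277 ± 1188 in 252 optimal panicles, and 1037 ± 154 in 082 high and 1387 ± 54.2 in 082 optimal panicles. PCL1, also an evening gene, had 36.7 ± 22.2 in 252 high and 6896 ± 1336 in 252 optimal panicles, and 61.8 ± 20.6 in 082 high and 265 ± 78.0 in 082 optimal panicles. CCA1, a morning gene, had 28757 ± 1684 in 252 high and 1245 ± 590 in 252 optimal panicles, and 28275 ± 2441 in 082 high and 11993 ± 4020 in 082 optimal panicles. GI and PCL1 were highest in 252 optimal panicles, as LIR1 and PORA were. In line 082 the signs were the other way: PCL1 had a log2 heat change of −1.85 and GI, which did not pass, of −0.43, where LIR1 had 1.78 and PORA 1.43. CCA1 was lowest in 252 optimal panicles, as PSAG was, and its heat changes were 4.64 in line 252 and 1.28 in line 082.

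Control signals differed as well. The 3′/5′ signal ratio of Dap, a bacterial control transcript, was 12.9 ± 0.486 in 252 high and 1.62 ± 0.036 in 252 optimal panicles, and 12.1 ± 0.846 in 082 high and 1.86 ± 0.118 in 082 optimal panicles. The 18S rRNA signal was 10855 ± 522 in 252 high and 1164 ± 189 in 252 optimal panicles, and 9128 ± 1930 in 082 high and 22254 ± 3562 in 082 optimal panicles, so it ran in opposite directions in the lines. Every high array had a higher Dap ratio than every optimal array, so labelling and heat cannot be told apart here. This limit holds for the 5 genes and for every other gene whose heat change is given. The part of the clock, of labelling and of the RNA in these values was not tested.

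Other genes of light capture, chlorophyll and light sensing were taken by symbol, and no further photosystem I or photosystem II subunit was found that way. Of 34 such genes 33 were bright enough to test, and RBCS1 was not. For heat in line 252, 7 rose, 0 fell and 26 did not pass, against 9.42% of all tested probe sets higher and 19.4% lower. For heat in line 082, 14 rose, 0 fell and 19 did not pass, against 14.2% and 21.9%. The lead of lower over higher calls among all probe sets depended on the filter. With a filter at the 75th percentile, 2584 probe sets were higher and 2948 lower in line 252, and 3727 and 3484 in line 082. The genes that rose were still 7 and 14. Array medians were 39.4 ± 2.15 in 252 high and 59.4 ± 3.63 in 252 optimal panicles. They were 38.3 ± 2.53 in 082 high and 62.4 ± 5.27 in 082 optimal panicles. At an unadjusted p under 0.05 in limma, 19 of the 33 genes were higher and 2 lower in line 252. In line 082, 27 of the 33 were higher and 1 lower. The share of all tested probe sets under that unadjusted limit was not computed, so nothing is read from counts at it, here or below. The median log2 change of the 33 was 0.62 in line 252 and 0.97 in line 082. LIR1 and PORA in line 252, and HO2 in line 082, had heat differences opposite in sign to these medians, as did PSAH in line 252 (−0.23 ± 0.30), which lay within its SE of 0.

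These counts moved with the scaling. After centring on the 75th percentile 13 genes passed in line 252 and 22 in line 082, and after scaling to the hybridization spikes 3 rose and 2 fell in line 252. Without replicate 1 of 252 optimal, 11 passed in line 252.

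In the chlorophyll list, 3 of 14 genes rose with heat in line 252 and 8 in line 082. SGR (LOC4347672), the stay-green gene of chlorophyll breakdown, rose by 2.89 ± 0.28 in line 252 (limma adjusted p = 6.48e-06) and by 1.74 ± 0.28 in line 082 (adjusted p = 0.000218). Its signals were 2204 ± 465 in 252 high and 296 ± 129 in 252 optimal panicles, and 3643 ± 508 in 082 high and 1107 ± 360 in 082 optimal panicles. HEMB, an early enzyme of tetrapyrrole synthesis, rose by 1.96 ± 0.10 in line 252 (adjusted p = 6.45e-08). In line 082 HEMB had 0.94 ± 0.10 (adjusted p = 1.14e-05), under the minimum log2 size of 1. CHLH, a subunit of the magnesium chelatase that opens the chlorophyll branch, rose by 1.52 ± 0.35 in line 252 and 1.73 ± 0.35 in line 082. CAO, which makes chlorophyll b, and NYC1, which begins its breakdown, each rose by 1.44 in line 082 (SE 0.30 for CAO and 0.22 for NYC1). In line 252 CAO had 0.89 ± 0.30 (adjusted p = 0.029), also under that minimum. Genes of both synthesis and breakdown were among those that rose.

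NYC1 had heat changes of opposite sign in the lines, like LIR1 and PORA, though in line 252 it did not reach a log2 size of 1 (−0.58 ± 0.22, limma adjusted p = 0.0458). Its signals were 2224 ± 43.2 in 252 high and 3382 ± 714 in 252 optimal panicles, and 2824 ± 194 in 082 high and 1079 ± 403 in 082 optimal panicles. The difference of its heat changes was −2.02 ± 0.31 (adjusted p = 0.000539). HEMB (1.02 ± 0.15, adjusted p = 0.000321), SGR (1.14 ± 0.40, adjusted p = 0.0457) and PORB (−1.05 ± 0.37, adjusted p = 0.0494) also passed in that contrast. The calls of SGR and PORB were lost in 13 and 14 of 21 alternatives, and that of HEMB in 6, where its value came under 1.

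Of 4 bilin and phytochrome genes, HO1 rose in line 252. In line 082 HO1 had 0.97 ± 0.24 (limma adjusted p = 0.00455), under the minimum log2 size of 1. The difference of its heat changes was 0.10 ± 0.34 and did not pass. The 3 phytochrome genes, which encode red and far-red light receptors, rose in line 082. Their log2 changes in line 082 were 1.80 ± 0.18 for PHYC (limma adjusted p = 4.76e-06), 1.61 ± 0.16 for PHYB (adjusted p = 5.75e-06) and 1.16 ± 0.12 for PHYA (adjusted p = 5.51e-06). In line 252 they were 0.46 ± 0.18, 0.28 ± 0.16 and 0.67 ± 0.12. The difference of heat changes passed for PHYC (−1.35 ± 0.25, adjusted p = 0.0017) and PHYB (−1.33 ± 0.23, adjusted p = 0.00107). PHYB had signals of 3895 ± 66.8 in 252 high and 3226 ± 372 in 252 optimal panicles, and 3553 ± 305 in 082 high and 1173 ± 295 in 082 optimal panicles, its low group.

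Of 4 light signalling genes, 0 passed for heat in line 252, with 1 higher at an unadjusted p under 0.05 in limma, and 2 rose in line 082. PHOT1A, a blue light receptor of the phototropin family, rose in line 082 by 2.67 ± 0.22 (adjusted p = 1.41e-06) and had 0.58 ± 0.22 in line 252, and the difference was −2.09 ± 0.31 (adjusted p = 0.000426). GLK1, a transcription factor for photosynthesis genes, rose in line 082 (adjusted p = 0.000972), with signals of 2901 ± 514 in 082 high and 819 ± 519 in 082 optimal panicles. The difference of its heat changes, −1.60 ± 0.56 (adjusted p = 0.0467), was lost in 15 of 21 alternatives.

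Of 7 genes of photosynthetic electron transport and ATP synthase, 2 rose in line 252 and 1 in line 082. A ferredoxin-NADP reductase gene (FNR, LOC4342399) rose in line 252 by 1.33 ± 0.17 (limma adjusted p = 4.33e-05), a call lost with the spikes (0.90). It also rose in line 082 (adjusted p = 1.27e-05). Its signals were 3912 ± 476 in 252 high and 1544 ± 185 in 252 optimal panicles, and 4412 ± 268 in 082 high and 1579 ± 380 in 082 optimal panicles. Other genes named for this enzyme did not pass in either line. LFNR1 had log2 heat changes of −0.10 ± 0.33 in line 252 and 0.84 ± 0.33 in line 082. Those of a further FNR gene (LOC4334338) were −0.38 ± 0.20 and −0.44 ± 0.20. NDHM, of the plastid NDH complex, rose in line 252 by 1.18 ± 0.37 (adjusted p = 0.0206). Its call was lost in 4 of 22 alternatives: with the spikes (0.74) and without replicate 2 of 252 high, replicate 2 of 252 optimal or replicate 3 of 252 optimal (1.15, 1.07 and 1.09). In line 082 NDHM had 0.97 ± 0.37 (adjusted p = 0.0416), under the minimum log2 size of 1.

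Of 3 tested Calvin cycle genes, RCA, the activase of Rubisco, rose in line 252 by 1.38 ± 0.13 (limma adjusted p = 5.21e-06), a call lost after quantile normalization (0.85) and with the spikes (0.94). In line 082 RCA had a log2 change of 0.61 ± 0.13, and RBCS, a small Rubisco subunit gene, had 0.60 ± 0.19. CAB2R, which encodes a chlorophyll-binding antenna protein, had 0.58 ± 0.12 in line 252 and 0.43 ± 0.12 in line 082 and did not reach the minimum of 1.

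**Figure D4:**
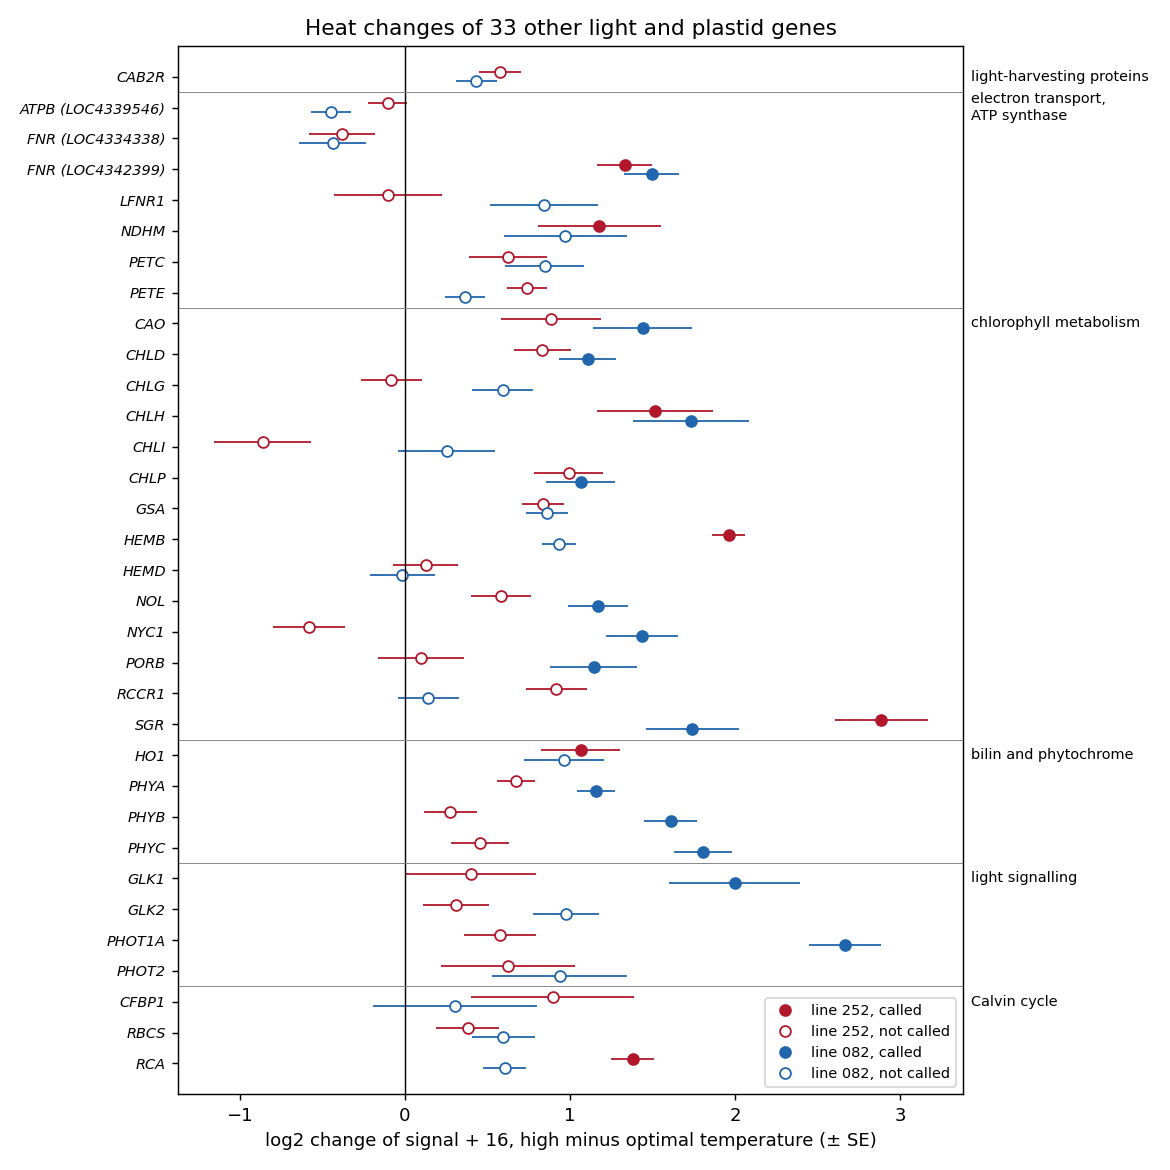
Log2 heat changes (high minus optimal temperature, signal + 16) of 33 light and plastid genes other than the 5, with standard errors; filled points were called at an adjusted p under 0.05 and a log2 change of at least 1. In line 252, 7 points are filled and in line 082, 14, all to the right of 0.

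Between the lines at high temperature, 0 of the 33 genes passed in limma, and at an unadjusted p under 0.05, 1 was higher and 1 lower in line 252. The largest difference in size among them was that of SGR (−0.73 ± 0.28), where HO2 had 2.03. At optimal temperature 7 were higher in line 252 and 2 lower, against 15.3% and 12.1% of all probe sets. PHOT1A (1.74 ± 0.22), NYC1 (1.68 ± 0.22), PHYB (1.47 ± 0.16), PHYC (1.38 ± 0.18), PORB (1.37 ± 0.26) and GLK1 (1.10 ± 0.40) were among those higher, and the call of GLK1 was lost in 8 of 22 alternatives. SGR (−1.88 ± 0.28) and HEMB (−1.14 ± 0.10) were lower, and the call of HEMB was lost with the spikes (−0.90). The differences of LIR1 (4.57) and PORA (4.31) were larger in size than those of any of the 33. LIR1, PORA and HO2 were chosen with their differences in view and the 33 by symbol, so nothing is read from their larger sizes.

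Among 2311 other genes with a name, those whose log2 signals were most like each gene over the 12 arrays were found by Pearson's r. The arrays fall into 4 groups, so r largely follows the group means and is a description. LIR1 was most like ARF12 (r = 0.97), GLT2 (0.97) and OsC3H53 (0.97). GLT2 had means of 659 in 252 high and 3628 in 252 optimal panicles, and 660 in 082 high and 161 in 082 optimal panicles. PORA was most like CNIH1 (0.96), OsC3H53 (0.95) and OsZIP5 (0.95), and so shared OsC3H53 with LIR1.

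PSAG was most like OsPEX11-4 (0.99), PAP2 (0.98) and MSRA4 (0.98). OsPEX11-4 had means of 5862 in 252 high and 997 in 252 optimal panicles, and 5957 in 082 high and 2045 in 082 optimal panicles. PSAH was most like FTSH2 (0.95), SS2 (0.95) and TPT (0.95), the last of which encodes the triose phosphate translocator of the plastid envelope. HO2 had no gene as close: ACA5 (0.85), AARE2 (0.85) and EG2 (0.80) came first. AARE2 had means of 845 in 252 high and 555 in 252 optimal panicles, and 308 in 082 high and 713 in 082 optimal panicles, so its lowest group was that of HO2.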

How the data were processed

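Panicle RNA of 12 samples (6 µg each) was labelled and hybridized to 1-colour Affymetrix rice arrays, per the labels' protocols. The authors deposited linear intensity signals; the submitters' processing notes name MAS5, with no version or target intensity in the sources used here. After a 2% trim at each end every array had a mean of 500.1, so arrays were taken as scaled to a common mean. No arrays were identical, and correlations between replicates ran from 0.948 to 0.977.

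Of 57381 probe sets, 22436 carried 1 gene in the platform's annotation, 95 carried several and 34850 none. Names came from a RefSeq table of the Japonica assembly ASM3414082v1. Close gene copies may share probe sets.

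After 187 control probe sets were set aside, the 33610 probe sets above their array's median on at least 3 arrays were kept. Group means of log2(signal + 16) were fitted in limma 3.58.1 (R 4.3.3; 8 residual degrees of freedom, intensity trend), with Benjamini-Hochberg adjustment per contrast. The fit was tested on simulated data. The genes and lists were chosen with earlier results of these data known. Lists were taken by symbol; 2 records were left out because their other names are those of a chitinase and a cinnamyl alcohol dehydrogenase. Named list genes were the up to 4 largest called changes per list and contrast, or the 2 largest where none was called. Alternatives were 3 other scalings, pseudocounts of 1 and 64, 2 other filters, no trend, a replicate block, compared groups alone, the mean over probe sets of a gene, and leaving out each array. Equal replicate numbers did not pair the samples: 2 of 18 correlations of same-numbered deviations were over 0.1 (range −0.20 to 0.13).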

Additional observations from a re-analysis of the deposited data

Results flagged for a closer look

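LIR1, PORA and HO2 had arrays that differed with heat in opposite directions in the lines: every high-temperature array of one line lay beyond all its optimal arrays on one side, and every high-temperature array of the other line on the other side. The differences of their log2 heat changes, 252 minus 082, were −4.08 for LIR1, −3.45 for PORA and 1.61 for HO2. These genes were chosen with the values in view, so the differences were not tested. The share of all probe sets with arrays set apart in this way was not computed, so nothing is read from how many of the genes showed it. For HO2 the value in line 252 was small, 0.50, and 0.07 with the hybridization spikes.

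Among the other light and plastid genes, the difference of heat changes between the lines passed limma's test for 8 of 33 (24.2%). That share was close to the 23.3% of all tested probe sets. The difference passed for NYC1 (−2.02), PORB (−1.05), SGR (1.14) and HEMB (1.02) in chlorophyll metabolism. It also passed for PHOT1A (−2.09) and GLK1 (−1.60) in light signalling and for PHYC (−1.35) and PHYB (−1.33) among the phytochromes. Of these, the adjusted p of SGR, PORB and GLK1 lay just under the threshold.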

How the results depend on the processing

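Of 550 recomputed log2 changes of the 5 genes, 539 moved by less than 1 SD of the replicates and 11 by more, and none with a change meeting the call rule turned its sign. Many of these could not move, so the count of 539 does not measure stability. Other filters, no trend, the replicate block and compared groups alone leave a log2 change as it is. So does leaving out an array outside the compared groups. Near-zero values of PSAH and PSAG between the lines at high temperature turned in 3 and 4 settings, and that of PSAH for heat in line 252 in 1. LIR1 and PORA kept their side of the call rule in every contrast and setting: for the difference of heat changes LIR1 ran from −4.42 to −3.72 and PORA from −3.86 to −3.14. PSAH dropped below the rule for that difference in 14 of 21 settings and PSAG at optimal temperature in 5. HO2 in line 082 came under the minimum of 1 after quantile normalization (−0.96) and centring on the 75th percentile (−0.92). Averaging PSAG over its 2 probe sets gave 1.47 for heat in line 252 and 1.06 in line 082. Of 33 called results of named list genes, 23 held in all alternatives, 10 were lost in at least 1 and 0 reversed.

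Centring on the 75th percentile raised the light and plastid genes called for heat to 13 in line 252 and 22 in line 082, and without a filter 5 passed for the difference of heat changes. With single arrays left out, their counts ran from 5 to 11 for heat in line 252, 11 to 20 in line 082, 4 to 7 for the difference, and, between the lines, 0 to 0 at high and 8 to 10 at optimal temperature. For the difference 8 passed, compared with 4 without replicate 1 or 2 of 252 high or replicate 2 of 082 high, and 5 without replicate 1 of 082 high, replicate 3 of 252 optimal or replicate 3 of 082 optimal. Over all probe sets, a filter at the 75th percentile, which tests fewer, gave 5532 and 7211 calls for heat in lines 252 and 082, 5069 for the difference, and 335 and 5272 between lines at high and optimal temperature. The main counts were 9690, 12141, 7828, 591 and 9208, and with single arrays left out they ran from 8658 to 9784, 10970 to 13188, 6730 to 8849, 424 to 645 and 8250 to 10020. For heat in line 252, 3167 probe sets rose and 6523 fell; these were 4394 and 4583 after quantile normalization, 4961 and 4729 after centring, and 1686 and 10209 with the hybridization spikes. In line 082, 4788 rose and 7353 fell, against 6225 and 5432, 6185 and 6206, and 4008 and 8196. For the difference 3700 and 4128 became 2503 and 5775 with the spikes, and at optimal temperature 5142 and 4066 became 7184 and 3153 with the spikes and 4069 and 4888 after centring.

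With the replicate block, 9633 and 12112 passed for heat in lines 252 and 082 and 7680 for the difference, and PSAG then met the rule for the difference (1.11). Including the 2 records left out by name, an alternative chosen after seeing the data, gave 7 genes that rose and 2 that fell with heat in line 252, 14 passing in line 082, 9 for the difference, and 0 and 11 between lines at high and optimal temperature. A fit of the compared groups alone gave no value for the difference, which needs all groups. Signals near the array median limit what can be said of the second PSAG probe set.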
